A study of Homo sapiens with 8 samples.

Results

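The genes of DNA replication licensing and of the replication fork were followed in HT-29 cells, an established human colorectal adenocarcinoma line, across a control, the drug 5-FU and 2 rice extracts. The group held 53 genes, chosen by symbol from a list covering origin licensing, helicase activation, the replicative polymerases, the sliding clamp and its loaders, flap processing, fork protection, chromatin assembly behind the fork and entry into S phase. All 53 were found among the 60796 genes of the deposited table, and all were protein coding. The study sequenced total RNA from 8 libraries, 1 for each of 4 treatments (control, 5-FU drug, 74 3NP extract and 76 3P extract) at 24 h and at 48 h. The extracts came from the rices MRQ 74 and MRQ 76 and were given at their IC50, the dose that reduces the measured response to its midpoint. The labels give no dose for 5-FU, no vehicle for the control and no meaning for 3NP or 3P. All libraries carry the same cell line, and all are also tagged as plant extract, controls included. Nothing in the labels says that the 2 libraries of a treatment came from separate cultures, so a p-value here measures only the spread between these libraries, which may be technical. With 1 library per treatment and time, that spread is what remains after additive terms for treatment and time. A response that differs between 24 h and 48 h is therefore counted as spread.

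Licensing loads the MCM2 to MCM7 helicase onto origins in G1, through the origin recognition complex, CDC6 and CDT1. In S phase CDC45 and GINS join the loaded MCM ring to make the active helicase. Polymerase alpha-primase starts each strand, polymerases delta and epsilon extend it on the PCNA clamp, and FEN1 and LIG1 finish the lagging strand. Most of these genes are known targets of E2F transcription factors, and their RNA is highest around the G1 to S transition in cycling cells. 5-FU is a pyrimidine analogue that blocks thymidylate synthesis and is the standard drug in colorectal cancer.

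Levels are given as FPKM, read numbers scaled to gene length and to library size, which allow a comparison between genes of different length. PCNA, the clamp (ENSG00000132646, chr20:5114953-5126626, GRCh38, minus strand), had the highest control level, at 129 and 155 FPKM at 24 h and 48 h. The histone chaperone ASF1B, the helicase subunit MCM7, the licensing factor CDT1 and the flap nuclease FEN1 followed, at 67.01 and 80.4, 59.8 and 70.5, 49.3 and 58.9 and 47.3 and 54.7 FPKM. In this order PCNA lay clear of the rest, while ASF1B and MCM7, and CDT1 and FEN1, overlapped between the 2 controls. GINS4, a subunit of the GINS ring, had the lowest control level, at 1.10 and 1.34 FPKM. POLA2, the accessory subunit of polymerase alpha, was next, at 1.696 and 1.89 FPKM. Of the 53 members, 30 reached 10 FPKM in both controls, and all 53 reached 1 FPKM in both. None therefore entered the test only through a treated library.

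Depth was 18141663 to 28048517 reads assigned to genes per library, recovered from the FPKM steps, and no member had fewer than 50 reads in a library. The 53 members took 0.387% and 0.447% of the reads in the controls at 24 h and 48 h, 0.601% and 0.554% with 5-FU, 0.354% and 0.406% with the 74 extract, and 0.198% and 0.173% with the 76 extract. Of the colon epithelium markers, 8 of 8 were at or above 1 FPKM in every library, with a summed level of 1358 to 2467 FPKM. Of 5 fibroblast markers only COL1A1 reached 1 FPKM, at 1.08 and 1.35 FPKM in the controls and at most 6.21 FPKM, in the 76 extract library of 48 h, with COL1A2 at 0 throughout. Its part in the results was not tested. Leukocyte markers summed to at most 1.29 FPKM and endothelial markers to at most 0.541 FPKM, with CDH5 at 0.

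Promoters were read from RefSeq (build GRCh38.p14, 250 bases before to 50 after each start), where 44 of the 53 members had an entry. The letters TTTCGCGC, TTTGGCGC, TTTCCCGC and TTTGCCGC, forms of the E2F motif, were searched on both strands. They stood in a promoter of 23 of the 44 members (52.3%), against 3.99% of all 27305 genes and 6.77% of the 9321 tested genes in that table. A gene was counted where any of its promoter windows held a match. Counted by single window, the share was 3.31% of all 35116. A match is a run of letters in the window and not a bound site. The share was 7 of 9 among licensing genes and 3 of 8 among the clamp and its loaders. The 160 bases before the start are shown for 7 members that differed in their response or in these letters. Capitals mark the motif letters on either strand. MCM6 (chr2:135876444-135876603, minus strand) holds 4 matches in overlapping pairs on opposite strands. PCNA (chr20:5126623-5126782, minus strand) and CDT1 (chr16:88803629-88803788, plus strand) hold 1 each, and E2F1 (chr20:33686386-33686545, minus strand) holds 2. POLA1 (chrX:24693758-24693917, plus strand) holds 1 and had the lowest difference with 5-FU. ORC6 (chr16:46689499-46689658, plus strand) holds none and had the highest difference with 5-FU. RFC1 (chr4:39366363-39366522, minus strand) holds none and was among the 4 members least lowered with the 76 extract. At most 16 bases of each window lie inside the gene as the deposited table places it.
MCM6: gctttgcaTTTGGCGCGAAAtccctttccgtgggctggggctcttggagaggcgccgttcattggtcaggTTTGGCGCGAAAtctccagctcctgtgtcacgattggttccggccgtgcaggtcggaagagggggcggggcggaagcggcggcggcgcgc
PCNA: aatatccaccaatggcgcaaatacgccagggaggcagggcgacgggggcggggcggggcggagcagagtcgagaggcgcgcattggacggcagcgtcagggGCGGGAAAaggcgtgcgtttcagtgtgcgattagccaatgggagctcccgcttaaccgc
CDT1: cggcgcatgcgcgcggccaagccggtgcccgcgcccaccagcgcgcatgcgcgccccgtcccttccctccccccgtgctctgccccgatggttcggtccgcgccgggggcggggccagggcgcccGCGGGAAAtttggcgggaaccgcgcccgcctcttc
E2F1: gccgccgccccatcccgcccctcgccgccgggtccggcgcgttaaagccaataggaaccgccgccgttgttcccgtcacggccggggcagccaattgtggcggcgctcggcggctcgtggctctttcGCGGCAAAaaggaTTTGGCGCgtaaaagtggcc
POLA1: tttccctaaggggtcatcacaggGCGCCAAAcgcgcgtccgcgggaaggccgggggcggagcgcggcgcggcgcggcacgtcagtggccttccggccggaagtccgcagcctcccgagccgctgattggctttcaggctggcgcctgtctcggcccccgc
ORC6: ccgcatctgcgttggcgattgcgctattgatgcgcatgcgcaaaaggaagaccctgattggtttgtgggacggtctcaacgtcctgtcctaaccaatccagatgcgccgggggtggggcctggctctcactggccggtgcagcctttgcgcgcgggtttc
RFC1: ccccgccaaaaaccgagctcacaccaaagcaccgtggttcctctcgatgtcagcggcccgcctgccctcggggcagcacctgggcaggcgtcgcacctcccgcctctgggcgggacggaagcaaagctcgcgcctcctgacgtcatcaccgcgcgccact

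Members with and without these letters were compared by their differences from the control. With 5-FU the median difference in log2(FPKM + 1) was 0.51 over the 23 members with the letters and 0.53 over the 21 without. For the 76 extract the medians were -1.18 and -0.92, and every member of both sets was lower than the control. For the 74 extract they were -0.16 and -0.13. Under 5-FU the members with the letters ran from POLA1 at -0.64 to CDC6 at 1.10, and those without from PRIM1 at -0.27 to ORC6 at 1.46. With the 76 extract the first set ran from PCLAF at -1.99 to TIPIN at -0.46 and the second from FEN1 at -1.42 to POLD2 at -0.15, so the ranges overlapped without being the same.

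The treatments were compared with the control as mean differences over 24 h and 48 h in log2(FPKM + 1), written below as log2 differences. A limma model of treatment plus time covered the 8 libraries together, and p-values were adjusted over the 13388 genes with at least 1 FPKM in 2 libraries. A call means an adjusted p below 0.05. The 3 treatments share the same control libraries, so their values are set side by side and not correlated. With 1 library at each time, differences at a single time are values with no test. Counts of genes past 1.5-fold were taken on the same log2(FPKM + 1) scale, which understates the change of low genes.

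With 5-FU the members were mostly higher than the control. The median member difference was 0.54, with 0.69 at 24 h and 0.40 at 48 h, while the median over all genes tested was 0.00. At both times 39 members were higher, against 37.7% of all genes tested, and both 5-FU libraries lay above both controls for 38 members, against 32.7% of genes. At least 1.5-fold higher at both times were 18 members, against 6.4% of genes. For 36 members the 5-FU libraries were above all 6 others, against 18.3% of genes. limma called 7 members higher, ORC1, ORC6, CDC6, MCM2, GINS2, RFC4 and CLSPN, where the background was 2.51% of genes called higher, and called none lower, where it was 3.02%. At an unadjusted p below 0.05 there were 32 members, against 29.0% of genes in either direction. A limma voom fit on the recovered reads called 12 members higher, against 3.99% of genes. The call count depends on single libraries. It was 0 without either control library or the 5-FU library of 48 h, where 0 genes were called in all, and 0 without either 74 extract library, where 0.149% of genes were called in either direction. Without the 5-FU library of 24 h 9 members were called higher and 2 lower, POLA1 and LIG1, and 19.3% of all genes were called, a share close to that of the members. Without the 76 extract library of 24 h or that of 48 h 14 members were called higher, against 8.28% and 8.25% of genes in either direction. The share of reads from mitochondrial genes was 4.62% and 5.52% in the 5-FU libraries and 2.96% and 3.18% in the controls. On the first principal component over all genes tested, which held 44.5% of the variance, the 5-FU libraries were at -33.6 and -59.0 and the other 6 between -1.1 and 42.8. The part of either in the member differences was not tested.

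With the 76 extract all 53 members were lower than the control at both times, against 38.4% of all genes tested. The median member difference was -0.99, with -0.89 at 24 h and -1.20 at 48 h, and the median over all genes tested was -0.05. In reads per length and depth the median ratio to the control was 0.481 at 24 h and 0.359 at 48 h. Both 76 extract libraries lay below both controls for 51 members, against 30.2% of genes, and below all 6 other libraries for 48 members, against 8.99% of genes. On the log2(FPKM + 1) scale, 42 members were at least 1.5-fold lower at both times, against 3.78% of genes. limma nevertheless called 0 members, as it called 0.0% of all genes lower in this contrast, with member adjusted p-values from 0.0617 to 0.736. At an unadjusted p below 0.05 there were 49 members, against 17.6% of genes. The voom fit called 27 members lower, where the background was 0.866%. Without the 76 extract library of 24 h the limma count was 26, and 6% of all genes were called in either direction. The share of reads from mitochondrial genes was 6.83% in the 76 extract library of 48 h and 3.18% in its control, while at 24 h it was 2.98% and 2.96%. The part of this share in the member differences was not tested. In bulk RNA, fewer cells in S phase and less RNA of these genes per cell cannot be told apart.

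With the 74 extract most members stayed near the control. The median member difference was -0.15, and at both times 31 members were lower, against 38.4% of genes. Both libraries lay below both controls for 21 members, against 29.8% of genes. limma called 0 members, where the background was 0.0523% of genes called higher and 0.0% called lower, and voom also called 0. At an unadjusted p below 0.05 there was 1 member, POLD2, against 12.1% of genes. No member was 1.5-fold lower at both times, against 1.46% of genes, and none was 1.5-fold higher at both, against 4.45%. At 24 h alone 5 members were at least 1.5-fold lower, ORC6, PCLAF, RFC3, DSCC1 and CCNE2, against 7.57% of genes. POLD2 was the 1 member at least 1.5-fold higher at 24 h, against 10.2%. At 48 h 0 members were past 1.5-fold in either direction, against 4.38% of genes lower and 6.77% higher.

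**Figure D1:**
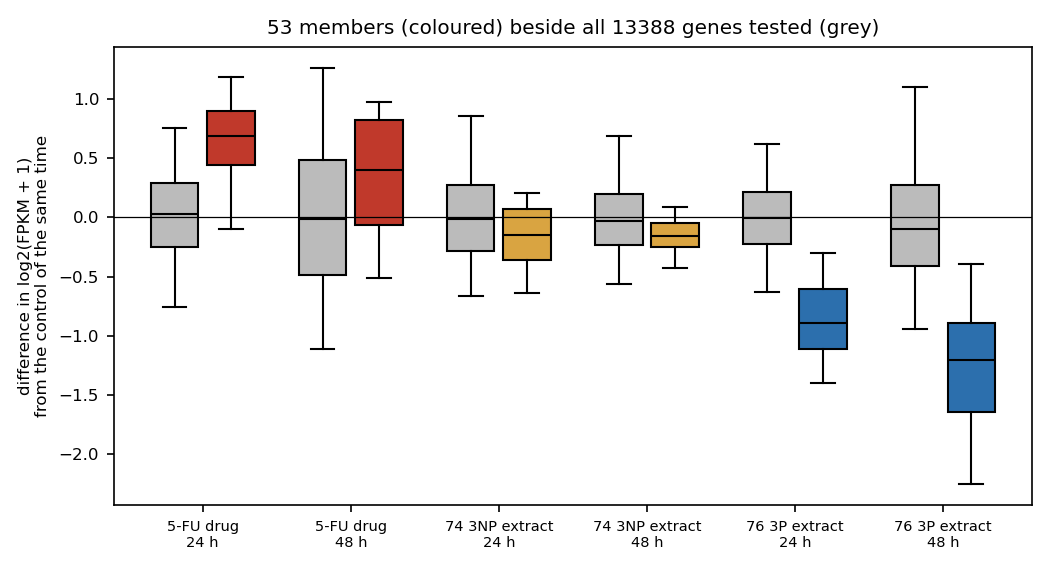
Differences from the control of the same time in log2(FPKM + 1), for the 53 members (coloured boxes) and for all 13388 genes tested (grey boxes). Boxes span the quartiles with the median as a line, and whiskers run from the 5th to the 95th percentile over genes. The member medians are 0.69 and 0.40 with 5-FU, -0.15 and -0.15 with the 74 extract, and -0.89 and -1.20 with the 76 extract at 24 h and 48 h.

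Among the licensing factors, the 5-FU and 76 extract libraries stood on opposite sides of the control. Of the 11 genes, 9 had a higher mean with 5-FU, with a median difference of 0.71, and all 11 a lower one with the 76 extract, with a median of -1.40. ORC6, a subunit of the origin recognition complex, measured 7.69 and 7.65 FPKM in the controls, 18.96 and 27.6 with 5-FU, 4.298 and 7.13 with the 74 extract and 3.696 and 3.97 with the 76 extract. The 5-FU libraries were the highest of the 8 and did not overlap any other. Its 5-FU difference was 1.46 (SE 0.22, adjusted p = 0.0257) by limma, the largest among the members. ORC1, the ATPase of the same complex, measured 8.86 and 9.65 FPKM in the controls, 16.4 and 19.9 with 5-FU, 8.07 and 8.72 with the 74 extract and 3.395 and 2.42 with the 76 extract. The 5-FU libraries were again the highest, and the 76 extract libraries the lowest. ORC1 rose with 5-FU by 0.90 (SE 0.21, adjusted p = 0.0473) in limma, and its 76 extract difference was -1.40 (SE 0.21, adjusted p = 0.0622).

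CDC6, which loads the MCM ring, behaved differently from its neighbours with the 76 extract. Its levels were 10.9 and 13.2 FPKM in the controls, 27.4 and 26.4 with 5-FU, 8.41 and 9.94 with the 74 extract and 5.17 and 11.1 with the 76 extract. Both 5-FU libraries exceeded the other 6, whereas the 76 extract library of 48 h lay within the range of the controls. CDC6 rose with 5-FU by 1.10 (SE 0.26, adjusted p = 0.0477) in limma. Its read ratio to the control with the 76 extract was 0.475 (95% interval 0.434 to 0.519) at 24 h and 0.844 (95% interval 0.786 to 0.905) at 48 h. These intervals cover counting error only. CDT1, the partner of CDC6 in loading, measured 49.3 and 58.9 FPKM in the controls, 74.96 and 106 with 5-FU, 34.3 and 43.5 with the 74 extract and 20.4 and 14.9 with the 76 extract. Its 2 lowest libraries were those of the 76 extract, and 5-FU gave the highest, with limma differences of 0.71 (SE 0.26, adjusted p = 0.116) for 5-FU and -1.57 (SE 0.26, adjusted p = 0.0714) for the 76 extract. GMNN, the inhibitor that binds CDT1, measured 17.8 and 17.3 FPKM in the controls, 30.9 and 32.2 with 5-FU, 13.8 and 17.6 with the 74 extract and 11.4 and 8.79 with the 76 extract. The ratio of CDT1 to GMNN was 2.77 and 3.40 in the controls, 2.43 and 3.28 with 5-FU, 2.48 and 2.47 with the 74 extract, and 1.79 and 1.70 with the 76 extract. The 76 extract libraries thus had the lowest ratios of the 8.

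The 6 subunits of the MCM2 to MCM7 ring did not move together with 5-FU. Their summed level was 199.4 and 232.7 FPKM in the controls, 300.5 and 326.2 with 5-FU, 210.9 and 223.4 with the 74 extract, and 81.9 and 71.0 with the 76 extract. MCM7 was the highest subunit and MCM5 the lowest in every library. MCM2 measured 34.6 and 41.7 FPKM in the controls, 69.4 and 79.5 with 5-FU, 38.2 and 37.8 with the 74 extract and 14.99 and 12.4 with the 76 extract. Its 5-FU libraries were the highest and its 76 extract libraries the lowest, with no overlap. MCM2 rose with 5-FU by 0.95 (SE 0.21, adjusted p = 0.04403) in limma. MCM6 measured 21.6 and 27.8 FPKM in the controls, 26.1 and 18.6 with 5-FU, 25.4 and 26.8 with the 74 extract and 11.2 and 8.398 with the 76 extract. Its 5-FU library was within the control range at 24 h and below both controls at 48 h, when the read ratio was 0.669 (95% interval 0.625 to 0.715). For MCM7 the same ratio was 1.82 (95% interval 1.76 to 1.87), so that the ratio of MCM7 to MCM6 was 6.89 at 48 h with 5-FU against 2.54 in the control. MCM3, like MCM6, had a lower level than its control at 48 h with 5-FU, with a log2 difference of -0.43, while MCM4 and MCM5 were at 0.60 and 0.28.

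With the 76 extract all 6 subunits were lower, with mean log2 differences from -1.88 for MCM4 to -1.14 for MCM7. MCM4 measured 32.1 and 33.6 FPKM in the controls, 56.1 and 51.4 with 5-FU, 28.9 and 30.1 with the 74 extract and 10.8 and 6.11 with the 76 extract. The 76 extract libraries were the 2 lowest, and the read ratio to the control was 0.337 (95% interval 0.321 to 0.355) at 24 h and 0.182 (95% interval 0.170 to 0.194) at 48 h. MCM5 measured 9.95 and 10.7 FPKM in the controls, 12.9 and 13.2 with 5-FU, 9.36 and 9.901 with the 74 extract and 3.21 and 1.78 with the 76 extract, and its 76 extract ratio at 48 h was 0.166 (95% interval 0.147 to 0.186). MCM7 was the only subunit whose ratio did not differ between the times, at 0.446 (95% interval 0.427 to 0.465) and 0.446 (95% interval 0.428 to 0.464). The ratio of the highest to the lowest level within the ring was 6.02 and 6.56 in the controls and 8.31 and 17.6 with the 76 extract.

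**Figure D2:**
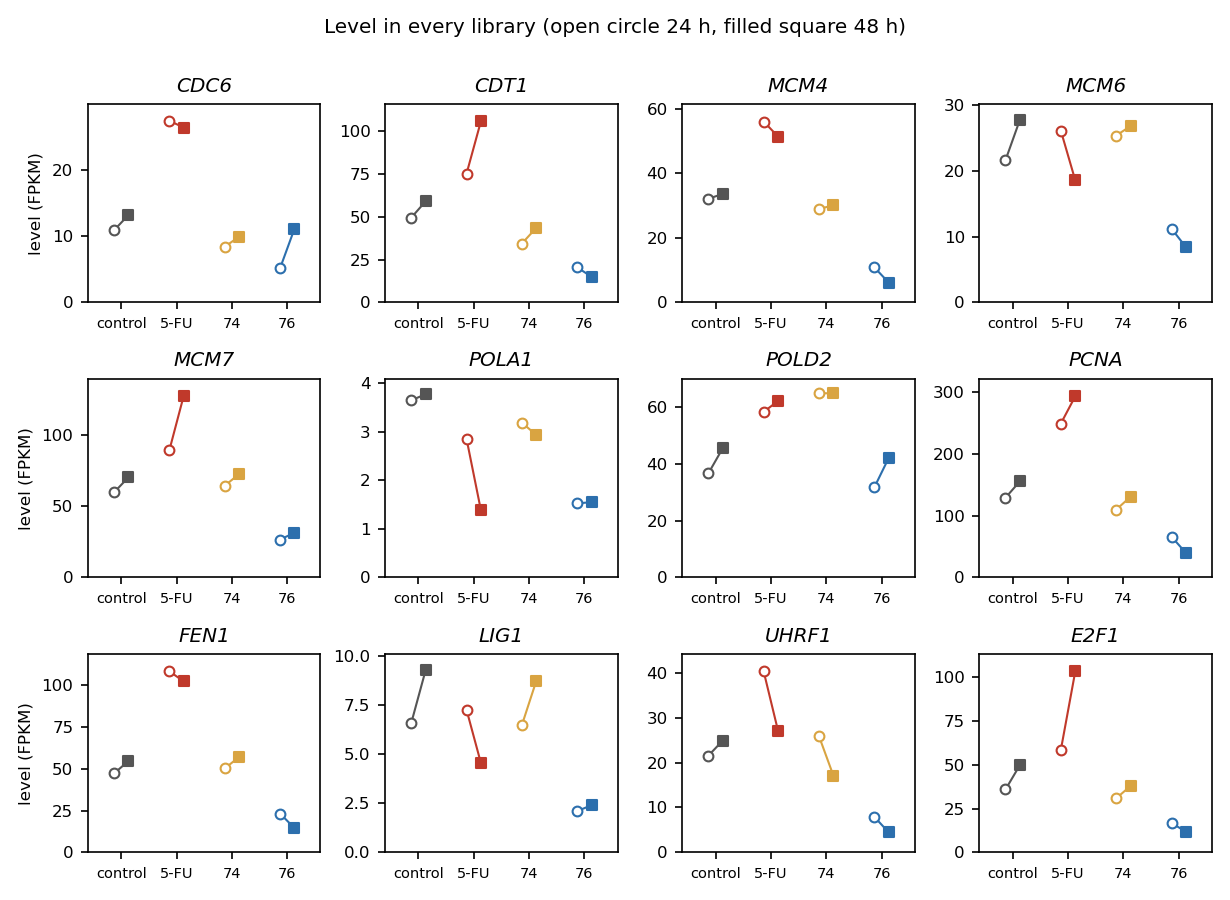
Level in FPKM (vertical axis, from 0) of 12 members in each of the 8 libraries, by treatment (control, 5-FU drug, 74 3NP extract, 76 3P extract), with open circles for 24 h and filled squares for 48 h. Each symbol is 1 library, without an error bar. PCNA, FEN1 and E2F1 are highest with 5-FU and lowest with the 76 extract, while POLA1, LIG1 and MCM6 are also below the control with 5-FU at 48 h.

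Among the genes that turn the loaded ring into a helicase, GINS2 was the called member. GINS2, a GINS subunit, measured 10.7 and 13.5 FPKM in the controls, 21.01 and 24.6 with 5-FU, 9.16 and 13.1 with the 74 extract and 4.96 and 5.23 with the 76 extract. Both 5-FU libraries were above the other 6 and both 76 extract libraries below them, and GINS2 rose with 5-FU by 0.86 (SE 0.19, adjusted p = 0.0429) in limma. GINS1, another subunit of the same ring, measured 12.1 and 13.8 FPKM in the controls, 17.9 and 9.37 with 5-FU, 9.21 and 12.1 with the 74 extract and 5.67 and 4.63 with the 76 extract. Its 5-FU libraries lay on either side of the controls, with a log2 difference of 0.53 at 24 h and -0.51 at 48 h. CDC45, the third partner of the helicase, measured 17.05 and 21.2 FPKM in the controls, 31.6 and 24.4 with 5-FU, 17.9 and 18.2 with the 74 extract and 8.34 and 6.14 with the 76 extract. Its 5-FU difference was 0.85 at 24 h and 0.19 at 48 h. MCM10, which activates the assembled helicase, was at 0.74 with 5-FU and -1.26 with the 76 extract. Over the 6 genes of this role the median difference was 0.52 with 5-FU and -1.14 with the 76 extract. GINS4, the lowest member, measured 1.10 and 1.34 FPKM in the controls, 1.81 and 1.76 with 5-FU, 1.11 and 1.09 with the 74 extract and 0.792 and 0.687 with the 76 extract, and at this level the log2(FPKM + 1) scale understates its change. The 76 extract read ratio of GINS4 was 0.720 (95% interval 0.559 to 0.927) at 24 h and 0.513 (95% interval 0.396 to 0.663) at 48 h.

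The polymerase genes had the smallest median difference of the 8 roles with 5-FU, 0.11 over 9 genes, and they stood on both sides of the control. POLA1, the catalytic subunit of polymerase alpha (ENSG00000101868, chrX:24693909-24996986, GRCh38, plus strand), measured 3.64 and 3.77 FPKM in the controls, 2.85 and 1.38 with 5-FU, 3.18 and 2.93 with the 74 extract and 1.52 and 1.55 with the 76 extract. The 5-FU library of 48 h was the lowest of the 8, and both 5-FU libraries were below both controls. The 5-FU difference of POLA1 was -0.64 (SE 0.23, adjusted p = 0.118) by limma, the lowest among the members, and its read ratio was 0.783 (95% interval 0.688 to 0.890) at 24 h and 0.366 (95% interval 0.305 to 0.439) at 48 h. POLA2, the accessory subunit of the same enzyme, measured 1.696 and 1.89 FPKM in the controls, 3.39 and 4.29 with 5-FU, 1.78 and 1.71 with the 74 extract and 0.897 and 0.720 with the 76 extract. Its 5-FU libraries were the 2 highest, with a read ratio of 2.27 (95% interval 1.93 to 2.68) at 48 h. The ratio of POLA2 to POLA1 was 0.470 and 0.500 in the controls, and 1.19 and 3.11 with 5-FU. It was 0.560 and 0.580 with the 74 extract and 0.590 and 0.470 with the 76 extract. PRIM1, the catalytic primase subunit, measured 5.57 and 6.03 FPKM in the controls, 4.94 and 4.32 with 5-FU, 3.42 and 5.04 with the 74 extract and 2.43 and 2.81 with the 76 extract, below both controls in both 5-FU libraries. Its partner PRIM2 was higher with 5-FU, at 0.56 and 0.13 at 24 h and 48 h.

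POLD2, the small subunit of polymerase delta, was the exception with both extracts. Its levels were 36.7 and 45.6 FPKM in the controls, 58.4 and 62.2 with 5-FU, 64.99 and 64.9 with the 74 extract and 31.8 and 42.2 with the 76 extract. Both 74 extract libraries were above both controls, and POLD2 was the only member for which that held, against 25.9% of all genes tested. Its 74 extract difference was 0.66 (SE 0.21, adjusted p = 0.294) by limma, which is no call. Its 76 extract difference was -0.15 (SE 0.21, adjusted p = 0.736), the smallest of the 53, and the library of 48 h lay between the controls. Of the other delta subunits POLD1 was at 0.06 and POLD3 at -0.41 with the 74 extract. POLD4, which is not a member, was at 0.42, and its 74 extract libraries were also both above both controls, at 8.55 and 7.22 FPKM against 5.76 and 5.45. The polymerase epsilon genes POLE and POLE2 were at -0.95 and -0.74 with the 76 extract. POLE2 measured 1.62 and 2.04 FPKM in the controls, 2.72 and 2.78 with 5-FU, 1.47 and 2.81 with the 74 extract and 0.735 and 0.646 with the 76 extract, and its 74 extract library of 48 h was above the controls while that of 24 h was not.

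PCNA measured 129 and 155 FPKM in the controls, 249 and 293 with 5-FU, 109.6 and 131 with the 74 extract and 65.8 and 39.4 with the 76 extract. The 5-FU libraries were the 2 highest and the 76 extract libraries the 2 lowest. The limma differences were 0.93 (SE 0.29, adjusted p = 0.0869) for 5-FU and -1.46 (SE 0.29, adjusted p = 0.08905) for the 76 extract, and neither is a call. PCLAF, a small protein that binds PCNA at forks, measured 6.28 and 7.57 FPKM in the controls, 9.22 and 9.55 with 5-FU, 2.52 and 6.44 with the 74 extract and 1.498 and 0.582 with the 76 extract. Its lowest library was the 76 extract at 48 h, with a read ratio of 0.0770 (95% interval 0.0580 to 0.101), the lowest ratio of any member. With the 74 extract PCLAF had a ratio of 0.402 (95% interval 0.337 to 0.477) at 24 h and 0.851 (95% interval 0.753 to 0.962) at 48 h, so its 74 extract libraries lay far apart.

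Of the clamp loader subunits, RFC4 measured 16.02 and 18.8 FPKM in the controls, 30.8 and 36.3 with 5-FU, 12.8 and 17.5 with the 74 extract and 8.26 and 9.06 with the 76 extract. The 5-FU libraries were above all others, and RFC4 rose with 5-FU by 0.91 (SE 0.19, adjusted p = 0.03899) in limma. RFC1, the large subunit that is specific to the PCNA loader, measured 14.1 and 15.7 FPKM in the controls, 15.6 and 11.3 with 5-FU, 10.96 and 13.4 with the 74 extract and 9.63 and 11.9 with the 76 extract. Its 76 extract libraries were less far below the control than those of RFC2 to RFC5, with a mean difference of -0.44 against values from -1.46 to -0.77. DSCC1, a subunit of the alternative loader used in sister chromatid cohesion, measured 23.95 and 25.3 FPKM in the controls, 47.01 and 44.1 with 5-FU, 14.9 and 20.6 with the 74 extract and 9.68 and 6.71 with the 76 extract. Its 5-FU libraries were the highest and its 76 extract libraries the lowest. CHTF18, the large subunit of that same loader, measured 6.38 and 8.16 FPKM in the controls, 6.84 and 6.23 with 5-FU, 7.24 and 8.04 with the 74 extract and 5.07 and 5.97 with the 76 extract. CHTF18 differences were -0.13 with 5-FU and -0.34 with the 76 extract.

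Genes of lagging strand completion separated with 5-FU. FEN1 measured 47.3 and 54.7 FPKM in the controls, 108 and 102 with 5-FU, 50.3 and 57.1 with the 74 extract and 23.3 and 14.5 with the 76 extract. Its 5-FU libraries were the highest and its 76 extract libraries the lowest, with limma differences of 1.04 (SE 0.25, adjusted p = 0.0513) and -1.42 (SE 0.25, adjusted p = 0.0774). LIG1, the ligase that seals the nick left after FEN1, measured 6.56 and 9.24 FPKM in the controls, 7.25 and 4.54 with 5-FU, 6.47 and 8.71 with the 74 extract and 2.102 and 2.399 with the 76 extract. With 5-FU its library of 24 h was between the controls and that of 48 h below them, with a read ratio of 0.491 (95% interval 0.442 to 0.544). The ratio of FEN1 to LIG1 was 7.21 and 5.92 in the controls, 15.0 and 22.6 with 5-FU, 7.78 and 6.56 with the 74 extract and 11.1 and 6.05 with the 76 extract. RPA1, RPA2 and RPA3 form the single-strand binding complex, and their 5-FU differences were 0.53, 0.54 and 0.81. RPA3 measured 7.298 and 8.21 FPKM in the controls, 10.6 and 19.3 with 5-FU, 6.92 and 9.92 with the 74 extract and 4.77 and 5.22 with the 76 extract, and its 5-FU library of 48 h was the highest of the 8. The RPA genes with the 76 extract were at -0.50, -0.65 and -0.55, and the median of this role, -0.65, was the nearest to 0 of the 8 roles.

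In the fork protection group, CLSPN, the adaptor that carries the checkpoint signal from ATR to CHK1, measured 3.905 and 4.38 FPKM in the controls, 10.8 and 7.69 with 5-FU, 2.65 and 2.78 with the 74 extract and 1.56 and 0.988 with the 76 extract. The 5-FU libraries were the highest and the 76 extract libraries the lowest, with those of the 74 extract below the controls too. CLSPN rose with 5-FU by 0.98 (SE 0.21, adjusted p = 0.0412) in limma. TIMELESS, which travels with the fork, measured 18.9 and 19.5 FPKM in the controls, 17.6 and 15.97 with 5-FU, 14.1 and 16.03 with the 74 extract and 9.07 and 6.999 with the 76 extract. All 6 treated libraries were below both controls for TIMELESS. Its partner TIPIN was at 0.30 with 5-FU and -0.46 with the 76 extract. WDHD1, which links polymerase alpha to the helicase, was at 0.69 and -0.26 with 5-FU at 24 h and 48 h and at -1.09 with the 76 extract.

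Of the genes for chromatin behind the fork, UHRF1, which brings the maintenance methyltransferase to newly made DNA, measured 21.5 and 24.9 FPKM in the controls, 40.3 and 27.02 with 5-FU, 25.8 and 17.1 with the 74 extract and 7.89 and 4.44 with the 76 extract. The 76 extract libraries were the lowest, with a read ratio of 0.178 (95% interval 0.163 to 0.195) at 48 h and a limma difference of -1.80 (SE 0.25, adjusted p = 0.0622). With 5-FU UHRF1 was at 0.87 at 24 h and 0.11 at 48 h. DNMT1, that methyltransferase, was at -0.08 with 5-FU and -0.93 with the 76 extract. The chromatin assembly subunits CHAF1A and CHAF1B were at 0.59 and 0.66 with 5-FU, and ASF1B, which hands them histones, was at 0.84.

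The genes of entry into S phase were higher with 5-FU without exception, with a median difference of 0.87 over 4 genes, and lower with the 76 extract, with a median of -1.22. E2F1, the transcription factor, measured 35.9 and 49.9 FPKM in the controls, 58.6 and 103 with 5-FU, 30.9 and 37.97 with the 74 extract and 16.9 and 11.7 with the 76 extract. The 5-FU libraries were the highest and the 76 extract libraries the lowest, with a 76 extract read ratio of 0.235 (95% interval 0.217 to 0.254) at 48 h. The cyclin E genes differed in level: CCNE1 measured 9.79 and 11.9 FPKM in the controls, 22.9 and 17.5 with 5-FU, 11.1 and 12.7 with the 74 extract and 6.95 and 5.98 with the 76 extract. CCNE2 measured 2.03 and 1.88 FPKM in the controls, 5.697 and 3.95 with 5-FU, 0.99 and 1.63 with the 74 extract and 0.672 and 0.478 with the 76 extract, and its 5-FU libraries were the highest of the 8. FAM111B, a protease gene that peaks in S phase, measured 13.7 and 17.1 FPKM in the controls, 28.8 and 28.98 with 5-FU, 9.0 and 13.8 with the 74 extract and 3.65 and 2.501 with the 76 extract. It had the lowest 76 extract difference of the members, -2.01 (SE 0.25, adjusted p = 0.0617) by limma, which is no call.

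**Figure D3:**
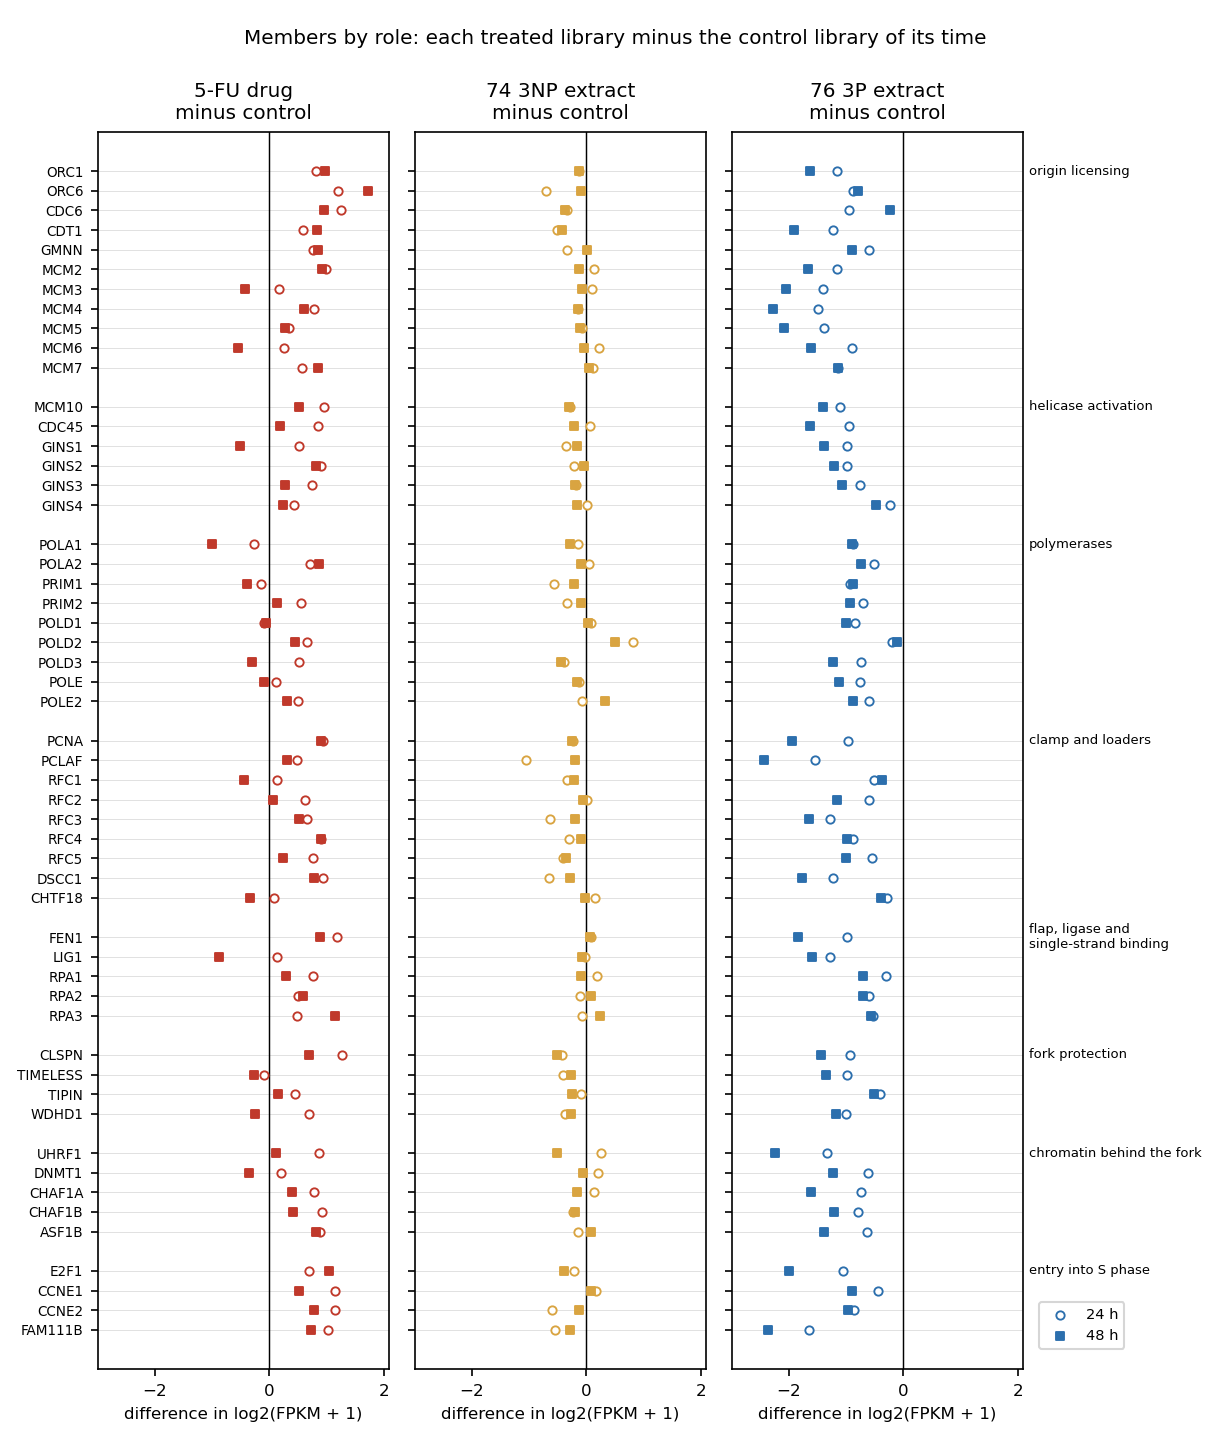
Difference in log2(FPKM + 1) from the control library of the same time (horizontal axis) for each of the 53 members, grouped by role, in 1 panel per treatment. Open circles are 24 h and filled squares 48 h, each a single library against a single library with no error bar. All points of the 76 extract panel lie below 0. In the 5-FU panel 14 members lie below 0 at 48 h, POLA1, LIG1, MCM6 and GINS1 among them, and the others lie above it.

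The treated groups were also compared directly, without the control in the difference. Between the 76 extract and 5-FU, limma called 48 of 53 members lower with the extract, where 10.5% of all genes were called lower. The members with no call were GINS4, POLA1, PRIM1, RFC1 and CHTF18. The difference was -2.89 (SE 0.25, adjusted p = 0.00318) for FAM111B and -2.58 (SE 0.24, adjusted p = 0.00318) for MCM4, the 2 lowest. Fewer members, and fewer genes in all, were called without the 76 extract library of 48 h or the 5-FU library of 48 h. The median member difference was -1.56 with all libraries, -1.39 without the first and -1.73 without the second. POLA1 differed by -0.26 (SE 0.23, adjusted p = 0.435), with levels of 2.85 and 1.38 FPKM with 5-FU and 1.52 and 1.55 FPKM with the 76 extract that overlapped.

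Between the 74 extract and 5-FU, 20 members were called lower with the extract, against 4.69% of genes. ORC6 had the largest such difference, -1.86 (SE 0.22, adjusted p = 0.0108), followed by CDC6 at -1.46 (SE 0.26, adjusted p = 0.0207). The count was 0 without the 5-FU library of 48 h or either 74 extract library, where 0 genes were called in all. It was 8 without either control library, where 3.86% and 4% of genes were called in either direction. Between the 2 extracts limma called 0 members, as it called 0.0% of all genes lower with the 76 extract, although all 53 means were lower with the 76 extract and 45 members had an unadjusted p below 0.05, against 12.9% of genes. MCM3 had the lowest difference between the extracts, -1.74 (SE 0.23, adjusted p = 0.0739). The voom fit called 8 members lower with the 76 extract, MCM2, MCM3, MCM4, MCM5, MCM7, FEN1, UHRF1 and FAM111B, where the background was 0.157%. Without the 76 extract library of 24 h the limma count was 10, against 0.59% of genes in either direction.

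The change from 24 h to 48 h within a treatment had a different sign in the controls and in the 76 extract. In the controls 47 members were higher at 48 h, with a median of 0.21 and a range from -0.18 for TIPIN to 0.46 for E2F1. Under the 74 extract 43 were higher, with a median of 0.22. With 5-FU 33 were lower at 48 h, with a median of -0.12. Under the 76 extract 39 were lower, with a median of -0.22, and CDC6 was the highest, at 0.98 on the log2 scale. Over all genes tested the median was 0.001 in the controls, 0.005 with 5-FU, -0.004 with the 74 extract and -0.08 with the 76 extract. The standard deviation over genes was 0.131 for members and 0.291 for all genes in the controls. With the 76 extract it was 0.324 and 0.537. Each of these is 1 library against 1, with no test.

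Gene length on the genome varied with the 5-FU difference. Length here is the span from the first to the last base of the gene in the deposited table. It can take in starts that lie far apart, so it can exceed the length of the main transcript's gene body. Across the 53 members Spearman's rho between the log10 span and the 5-FU difference was -0.36 at 24 h and -0.53 at 48 h, and across all 13388 genes tested it was -0.03 and -0.24. Genes are not independent replicates, and all points share the same pair of libraries. At 48 h the 26 shorter members, 4328 to 24027 bases long, had a median difference of 0.78 with 23 higher than the control. The 27 longer members, 25298 to 332046 bases long, had a median of 0.15 with 16 higher. POLA1 spans 303078 bases and had the lowest value, while RPA3 spans 82090 bases and had a difference of 1.14. For the 74 extract rho was 0.02 and -0.22 over the members and -0.14 and -0.25 over all genes, so over all genes it was as strong at 48 h as with 5-FU. For the 76 extract rho was 0.09 and 0.05 over the members and -0.12 and -0.08 over all genes.

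**Figure D4:**
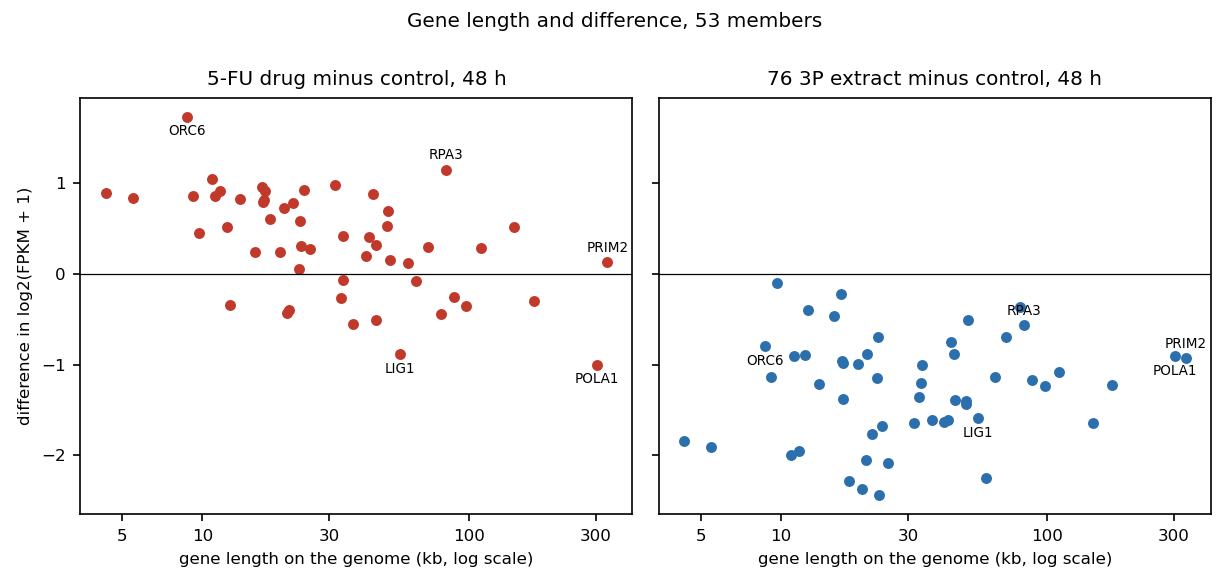
Gene length on the genome (horizontal axis, kilobases, log scale) against the difference in log2(FPKM + 1) from the control at 48 h, for the 53 members as points, with 5-FU (left) and the 76 extract (right). The 5-FU points fall from short to long genes, with a rho of -0.53, and the 76 extract points have a rho of 0.05.

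Other genes of replication that are not members were measured too. Of a list of 30, 28 passed the filter and none was called against the control in any treatment. With 5-FU, 2.51% of all genes were called higher and 3.02% lower. By mean difference, 6732 of 13388 genes tested were higher with 5-FU, 7403 lower with the 76 extract and 7167 lower with the 74 extract. With the 76 extract 27 of the 28 were lower, with a median difference of -0.65. The exception was POLD4, the smallest subunit of polymerase delta, at 0.68 (SE 0.28, adjusted p = 0.257) by limma. ORC4 was the next highest, at -0.09. The lowest were CDCA7, a factor that recruits the remodeller HELLS, at -1.75 and the nuclease and helicase gene DNA2 at -1.50. With 5-FU 19 were higher, with a median of 0.22, from RNASEH2C at 0.85 and RECQL4 at 0.84 down to ORC2 at -0.45 and CDCA7 at -1.17. CDCA7 measured 9.17 and 11.9 FPKM in the controls, 6.81 and 2.32 with 5-FU, 6.27 and 7.37 with the 74 extract and 2.34 and 2.46 with the 76 extract, lower than both controls in both 5-FU libraries. With the 74 extract 25 were lower, with a median of -0.24, from POLD4 at 0.42 and RNASEH2C at 0.23 down to CDCA7 at -0.55 and TOPBP1 at -0.57.

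Among 17 genes for E2F and RB control, limma called 4 higher with 5-FU, against 2.51% of all genes, and none lower, against 3.02%. CDKN1A, the p21 inhibitor of cyclin-dependent kinases, measured 41.4 and 38.9 FPKM in the controls, 101 and 176 with 5-FU, 60.7 and 50.9 with the 74 extract and 70.4 and 120.1 with the 76 extract. All 6 treated libraries were above both controls, and CDKN1A rose with 5-FU by 1.71 (SE 0.30, adjusted p = 0.03098) in limma. The phosphatase CDC25A, which activates CDK2, rose by 1.25 (SE 0.20, adjusted p = 0.0292), CDK2 itself by 0.97 (SE 0.23, adjusted p = 0.0492) and the E2F repressor E2F8 by 0.96 (SE 0.20, adjusted p = 0.03996). The lowest with 5-FU were RBL2 and E2F5, at -1.04 and -0.80, with no call. In the 76 extract comparison 15 of the 17 were lower, against 7403 of 13388 genes tested, with a median of -0.74. None was called, as 0.0% of all genes were called lower. CDKN1A and E2F6 were the higher ones, at 1.18 and 0.06, and CCNA2 and E2F2 the lowest, at -1.29 and -1.26. In the 74 extract comparison 13 were lower, against 7167 of 13388 genes tested. The list ran from CDKN1A at 0.46 and E2F4 at 0.21 down to RB1 at -0.67 and E2F7 at -0.69.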

How the data were processed

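The deposited table gives FPKM per gene and library with gene lengths; per the labels' protocols the reads passed a quality filter before alignment by HISAT2, and the submitters' processing notes name its version 2.0.5 and GRCh38. No source used here names the counting tool. The deposited quality table gives the count of filtered reads, 44361052 to 68674126 per library, and GC percent, 51.88% to 53.94%. FPKM times gene length came in whole multiples of 1 step per library for 100% of values (tolerance 0.01 read), so read counts were recovered as those multiples. These counts may be of fragments and not of single reads, so they give no share of the filtered reads.

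Samples were grouped by their titles, 4 treatments by 2 times, with 1 library each. Members were matched by symbol. limma 3.58.1 (R 4.3.3) with a variance trend was run on log2(FPKM + 1), pseudocount 1, two-sided, with Benjamini-Hochberg adjustment; 3 residual degrees of freedom remained. Genes needed FPKM of 1 in at least 2 libraries. Fold changes on this scale understate the change of low genes. Read ratios carry exact 95% Clopper-Pearson intervals, which cover counting error only. A model of the same form was run on simulated reads with known changes that were equal at both times. That run held no response that differs between 24 h and 48 h, so it does not cover this part of the spread. Alternatives were another pseudocount, filter, scaling, trend, time term, sample set, limma voom on recovered reads, and each library left out.

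Values in every library are given for members called against the control, for the 4 highest and 4 lowest differences per treatment, for the highest and lowest control levels, and for further members chosen after their values were seen. Of other lists, the 2 highest and 2 lowest per treatment are named. The members and lists were chosen with earlier results of these data known. Promoter starts were checked against GENCODE 29 transcripts: 20 bases after a start were found in the same direction for 38 of 44 members and in the reverse direction for 0. Protein sequence patterns were not analysed here.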

Additional observations from a re-analysis of the deposited data

How the results depend on the processing

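For 5-FU against the control, 7 members were called by limma, all higher, with 5.53% of all genes called in either direction. The count was 4 (5.8% of genes) with a pseudocount of 0.1, 0 (0%) without the low-value filter, 13 of the 47 that passed (11.3%) with a filter at FPKM of 5, 2 (5.63%) with scaling to total recovered reads, 2 (4.38%) with quantile normalization, 2 (2.94%) with no time term, 14 (8.99%) with only the 4 libraries compared and 12 (8.59%) with limma voom. Leaving out each library in turn gave 0 to 14 calls with 0% to 19.3% of genes called; the calls were all higher except for the 9 higher and 2 lower without the 5-FU library of 24 h. For the 74 extract against the control 1 was called with only the 4 libraries compared, where 10% of genes were called, and 0 under all other alternatives. For the 76 extract against the control, where the count was 0 with 0% of genes called, it was 24 of the 47 that passed (1.99%) with a filter at FPKM of 5, 25 (2.15%) with only the 4 libraries compared, 27 (1.37%) with voom, and 0 to 26 (0% to 6%) with a library left out. Between the extracts it was 7 (0.199%) with the filter at FPKM of 5, 8 (0.194%) with voom and 0 to 10 (0% to 0.59%) with a library left out. For the 76 extract against 5-FU it was 48 (19.3%), 0 (0%) without the filter, and 24 to 45 (1.33% to 27.2%) with a library left out. For the 74 extract against 5-FU it was 20 (10.8%), 0 (0%) without the filter, and 0 to 23 (0% to 19.2%) with a library left out, of which 2 were higher without the 5-FU library of 24 h. The fits without the filter tested the 33187 genes above 0 in at least 1 library, and the cause of the lost calls was not tested.

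The median member difference with 5-FU stayed from 0.398 to 0.656. For the 76 extract it was -1.225 with a pseudocount of 0.1, -0.698 with 5 and -1.266 with voom. For the 74 extract it was -0.159 with a pseudocount of 0.1, -0.101 with 5, -0.193 with scaling to recovered reads, -0.160 with quantile normalization, -0.162 with voom, and -0.274 to -0.042 with a library left out. No scaling moved the median of all genes by more than 0.1. Signs were followed for members called or among the 4 highest and 4 lowest differences of a treatment. Of these, 4 changed sign when a library was left out, and none did under the other alternatives. LIG1 with 5-FU ranged from -0.826 to 0.065. With the 74 extract CCNE1 ranged from -0.070 to 0.316, POLE2 from -0.164 to 0.406 and RPA3 from -0.067 to 0.244. Other members could also change sign. With 5-FU 43 of 53 members were higher in the main fit, 40 with scaling to total recovered reads and 42 with quantile normalization. With the 74 extract these counts were 13, 11 and 10. The labels give no replicate numbers to pair by; libraries were matched by time through the time term of the main model.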
